A study of Sus scrofa with 96 samples.

Results

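Testis RNA from boars of low genetic merit for boar taint (BT) was sequenced with 2 library kits, which are compared here. The comparison held 15 of the 96 libraries of the study: 8 made with a total RNA kit and 7 made with a stranded mRNA kit. They are the testis libraries labelled low BT, with the kit taken from the labels. A further low BT testis library of the total RNA kit had 379942 reads on only 940 genes and was left out, since it fell below the minimum of 5000 genes with counts. Boar taint is an off-odour of pork from intact males, and low BT means that the sires had low estimated breeding values for it. All 48 boars of the study were intact Danish Landrace males without treatment, slaughtered at a common weight, and each of the 15 libraries came from another boar. Testis was sampled by punch biopsy after the carcass had been kept cold, so each library is a mixture of all cell types of the tissue. Total RNA libraries were made from RNA of lower integrity, and in the file labels all 8 were of batch 3 while all 7 mRNA libraries were of batch 1. Kit, batch and RNA integrity therefore cannot be told apart in these libraries, and each value given by kit is a value of all 3 together.

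An mRNA kit captures RNA by its poly(A) tail, so that RNA without a tail, such as small nucleolar RNA and the mRNA of replication-dependent histones, is mostly lost. A total RNA kit removes ribosomal RNA and keeps the remainder, with or without a tail, including unspliced RNA of the nucleus. When RNA is broken, capture by the tail favours the 3′ ends of transcripts. The testis combines the seminiferous epithelium, where spermatogonia, spermatocytes and spermatids develop among Sertoli cells, with an interstitium of Leydig cells, which make testosterone and, in boars, androstenone. The tissue label held in both kits: PRM1 and TNP1, which encode a protamine and a transition protein that pack the DNA of spermatids, were among the 10 most abundant genes of either kit.

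The kits differed in how their reads fell on genes. The share of uniquely aligned reads assigned to a gene ranged from 30.1% to 47.7% (median 33.5%) in total RNA and from 65.6% to 71.2% (median 68.7%) in mRNA. Within total RNA, replicates 4, 5 and 7 had 46.2%, 47.7% and 46.4%, and the other 5 had between 30.1% and 33.8%. Reads aligned to several places made up 10.6% ± 2.37 (SD, n = 8) of all reads in total RNA and 6.13% ± 0.15 (SD, n = 7) in mRNA. The 10 highest genes of a library took 14.8% to 27.2% of its gene reads in total RNA and 5.24% to 7.67% in mRNA. None of these ranges overlapped between kits. Reads counted on genes ranged from 3689243 to 7519001 in total RNA and from 8883019 to 10843322 in mRNA, so counting error was larger in total RNA.

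The number of genes with counts was 17013 to 18376 in total RNA and 17194 to 17883 in mRNA, and the difference was not called in the exact permutation test (two-sided p = 0.763). After all libraries were thinned to 3689243 reads, total RNA had 17049 ± 214 genes (SD, n = 8) and mRNA 16399 ± 233 (SD, n = 7), without overlap. This difference had an exact permutation p of 0.000311, the smallest that 8 against 7 libraries allow, and an adjusted p of 0.000424 over the 15 measures compared. The shares assigned, aligned to several places and taken by the 10 highest genes gave the same values.

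**Figure D1:**
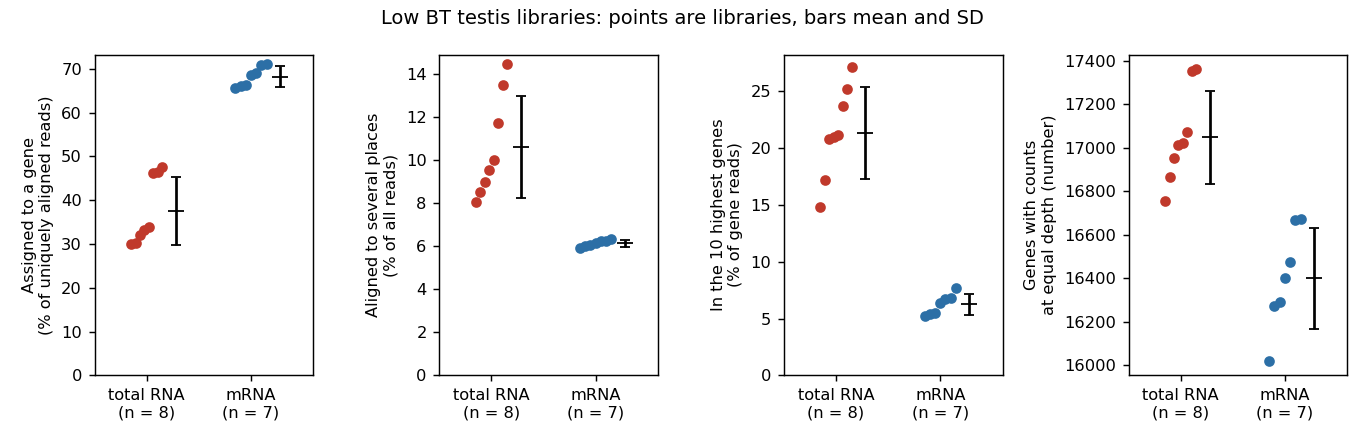
Each point is one of the 15 low BT testis libraries, and bars give the mean and SD of a kit. The vertical axes give the share of uniquely aligned reads assigned to a gene, the share of all reads aligned to several places, the share of gene reads in the 10 highest genes and, on an axis that does not start at 0, the number of genes with counts at 3689243 reads. The kits do not overlap in any of the 4 panels.

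Libraries of one kit resembled each other more than libraries of different kits. The correlation of log2 CPM (counts scaled to a common library size) across genes had a median of 0.96 within total RNA, 0.97 within mRNA and 0.89 between kits. Of 14872 genes with a mean count above 5, 4745 (31.9%) were higher and 3799 (25.5%) lower in total RNA, together 57.5%, at an adjusted p under 0.05 in limma on voom values with trimmed mean (TMM) factors. With library sizes unscaled, 3823 were higher and 4656 lower. With library sizes computed without the 10 highest genes of each library, 5573 were higher and 2966 lower, and the median log2 fold change over all genes moved from 0.05 to 0.19. A preponderance of higher or of lower genes therefore depended on the scaling. The called genes were mostly of small change, since 5388 of them (63.1%) had a fitted change of less than 2-fold. With TMM factors, large changes lay mainly in one direction. Tested against a change of 2-fold with limma's treat, 947 genes (6.37%) were higher and 132 (0.888%) lower. The treat test was run with TMM factors alone. The share called at an adjusted p under 0.05 was 57.6% among genes with a symbol and 57.3% among identifiers without one, which made up 50.4% of the 947 and 40.9% of the 132. A log2 fold change above 4 was seen for 144 genes and one below -4 for 1 gene. At 2315 genes (15.6%) all 8 total RNA libraries were above all 7 mRNA libraries, and at 1523 (10.2%) all were below, together 25.8%. A gene could pass the minimum mean count through the libraries of 1 kit alone, and such a gene had to differ. How many of the genes with large changes or without overlap were of this kind was not counted.

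A handful of transcripts dominated the total RNA libraries. Of the 10 genes of highest mean CPM in total RNA, 6 were past a 2-fold increase over mRNA. Together these 6 took 12.4% to 25.2% (median 18.4%) of the gene reads of a total RNA library and 0.067% to 0.32% (median 0.19%) of those of an mRNA library. None of the 6 had a symbol in the table of pig gene names, so what they encode is not stated here. The most abundant, ENSSSCG00000019556, was between 51242 and 120829 CPM (median 88023) in total RNA and between 83.7 and 240 CPM (median 182) in mRNA. Its log2 fold change was 9.08 ± 0.22 (SE, adjusted p = 1.4e-16 in limma). The gene of lowest p-value was ENSSSCG00000029605, with 17066 to 30106 CPM (median 25384) in total RNA and 5.53 to 30.2 CPM (median 10.15) in mRNA.

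Among the lower genes, ENSSSCG00000025162 was at 34.5 to 247 CPM (median 81.9) in total RNA and at 2494 to 5570 CPM (median 3723) in mRNA, where it ranked among the 10 most abundant genes. Its log2 fold change of -5.45 ± 0.34 (SE, adjusted p = 1.93e-10 in limma) was the lowest of all genes tested. The next, ENSSSCG00000014649, had a log2 fold change of -3.03. The mRNA libraries were led by PRM1, the mitochondrial COX1 and CRISP2, a secretory protein of the sperm acrosome and tail. PRM1 was the most abundant, at 4291 to 14672 CPM (median 9349) in total RNA and 9902 to 19447 CPM (median 13761) in mRNA. The PRM1 ranges overlapped, and the difference did not pass the test (adjusted p = 0.0597 in limma).

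Of the 10 largest increases without overlap and at 10 CPM or more, 5 were of genes with a symbol, and these were small nucleolar RNAs, which guide the chemical modification of ribosomal RNA. The box C/D RNA SNORD97 was between 497 and 1176 CPM (median 783) in total RNA. In mRNA it was between 0.088 and 0.72 CPM (median 0.21), from 18 counts in all 7 libraries. Its log2 fold change of 11.65 ± 0.59 (SE) was the largest of all genes tested. It passed the minimum mean count only through total RNA and had to differ, so no p-value is given. SNORD17, also of the box C/D type, was between 412 and 1631 CPM (median 992) in total RNA and between 0.31 and 0.88 CPM (median 0.57) in mRNA. Among box H/ACA RNAs, which guide pseudouridylation, the log2 fold change was 10.82 for SNORA53, 9.80 for SNORA12 and 9.55 for SNORA74. SNORA74 had 223 to 414 CPM (median 325) in total RNA and up to 0.72 CPM (median 0.35) in mRNA. SCARNA12, a small Cajal body RNA, had 110 to 193 CPM (median 149) in total RNA and 0.20 to 1.23 CPM (median 0.58) in mRNA, a log2 fold change of 8.09 ± 0.32 (SE).

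These 5 small nucleolar RNAs and SCARNA12 were present in every total RNA library at levels far from those of any mRNA library. The whole set held 66 identifiers matched by name, among them U2SURP, a protein-coding gene whose symbol the name pattern also takes. Of the 65 others, 24 passed the minimum mean count, and 22 of these were higher and 0 lower, beside 31.9% and 25.5% of all genes. Only 7 of the 25 tested identifiers, U2SURP included, would have passed the minimum on the mRNA libraries alone. The remainder passed through the total RNA libraries and had to differ, so this count says little beyond the values themselves. Counts of 0 in all 15 libraries were found for 5 of the 66 identifiers, and 36 more had counts but too few to be tested. SNORA27 did not follow the others: it was at 13.4 to 25.9 CPM (median 21.96) in total RNA and 13.2 to 29.6 CPM (median 17.5) in mRNA (adjusted p = 0.167 in limma). It was called higher, by 0.41 on the log2 scale, when the library sizes were computed without the 10 highest genes. SNORD99, with 45 counts over the total RNA and 49 over the mRNA libraries, also missed the threshold. U2SURP differed by 0.31 on the log2 scale. That call was lost with unscaled library sizes and with DESeq2.

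Together the 66 identifiers, U2SURP included, took 0.20% to 0.41% of gene reads in total RNA and 0.011% to 0.016% in mRNA. They thus held a far smaller part of the reads than the 6 leading identifiers. Small nucleolar RNAs mostly lie within introns of other genes, and reads of unspliced host RNA cannot be told from reads of the small RNA in a gene count. The 15 microRNA identifiers had 141 counts over the 8 total RNA libraries and 90 over the 7 mRNA libraries. None of them passed the minimum mean count. No identifier was matched for the 2 mitochondrial ribosomal RNAs or the 5 nuclear long noncoding RNAs that were looked for.

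Both replication-dependent histone genes with a symbol rose. These mRNAs are made in S phase and end in a stem-loop in place of a poly(A) tail. H1-3, a linker histone, was at 30.7 to 63.7 CPM (median 45.8) in total RNA and at 1.05 to 7.03 CPM (median 2.05) in mRNA. The log2 fold change was 3.90 ± 0.30 (SE, adjusted p = 2.83e-09 in limma). H2BC5, a core histone, was at 49.9 to 79.6 CPM (median 63.6) in total RNA and 15.1 to 23.7 CPM (median 19.8) in mRNA, a log2 fold change of 1.84 ± 0.13 (SE). The kits overlapped for neither gene, beside 15.6% of all genes that were higher without overlap. Among the 4 replication-independent histone genes, whose mRNAs carry a tail, H2AZ1 and H2AZ2 were called higher, by 0.65 and 0.26 on the log2 scale, and their ranges overlapped. Of all genes 31.9% were called higher. The H2AZ2 call was lost with edgeR and with DESeq2. Histone genes exist in near-identical copies, so these counts may be divided between them.

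**Figure D2:**
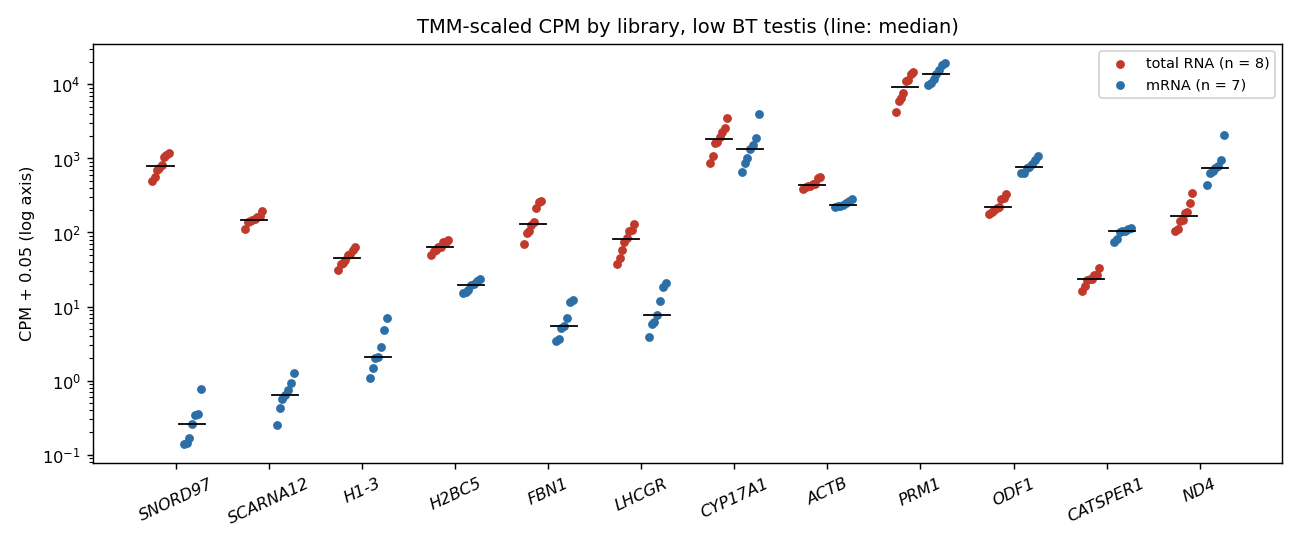
Levels of 12 genes in each library, in TMM-scaled CPM plus 0.05 on a log axis, with a point for each of the 8 total RNA and 7 mRNA libraries and a line at the median. SNORD97, SCARNA12, H1-3, H2BC5, FBN1, LHCGR and ACTB are higher in all total RNA libraries, ODF1, CATSPER1 and ND4 lower in all of them, and CYP17A1 and PRM1 overlap.

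The mRNAs of the mitochondrial genome moved the other way. Most of them carry short tails, and they encode subunits of respiratory complexes and of ATP synthase. Of the 13 genes, 11 were lower in total RNA, 1 was higher and 1 did not pass the test, beside 25.5% lower and 31.9% higher of all genes, with a median log2 fold change of -1.19 against 0.05 over all genes. ATP8, a subunit of ATP synthase, was at 22.5 to 69.3 CPM (median 31.6) in total RNA and at 133 to 621 CPM (median 189) in mRNA. This gave a log2 fold change of -2.51 ± 0.25 (SE, adjusted p = 9.46e-08 in limma). ND4, a subunit of complex I, was at 103 to 342 CPM (median 167) in total RNA and 434 to 2093 CPM (median 754) in mRNA. ND2, of the same complex, had a log2 fold change of -1.95. ATP8, ND4 and ND2 were the ones whose kits did not overlap in this direction, 3 of 13, beside 10.2% of all genes. CYTB, ATP6, ND1, ND5 and ND3 had log2 fold changes between -1.43 and -1.18, and COX2, COX3 and ND4L between -0.84 and -0.78.

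COX1 was the most abundant of them and had the smallest difference, with 4884 to 7885 CPM (median 6121) in total RNA and 5164 to 17551 CPM (median 6522) in mRNA (log2 fold change -0.28, adjusted p = 0.173 in limma). It was called lower with unscaled library sizes and with DESeq2. ND6, which alone of the 13 is read from the light strand, was at 23.6 to 80.4 CPM (median 55.4) in total RNA and at 11.8 to 46.0 CPM (median 21.1) in mRNA. The ranges overlapped, with a log2 fold change of 1.16 ± 0.31 (SE, adjusted p = 0.00313 in limma). The counting was run with default parameters, and whether its strand setting matched the kits was not tested, so reads of ND6 and of antisense RNA of its neighbours may be mixed.

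One mRNA library, replicate 4, had the highest level of most of these genes. Mitochondrial mRNAs took 5.15% of its gene reads, against 1.47% to 3.08% in the other 6 mRNA libraries and 0.83% to 1.70% in total RNA. Without replicate 4 the log2 fold change of ATP8 was -2.33, that of ND4 -2.01 and that of COX1 -0.14.

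**Figure D3:**
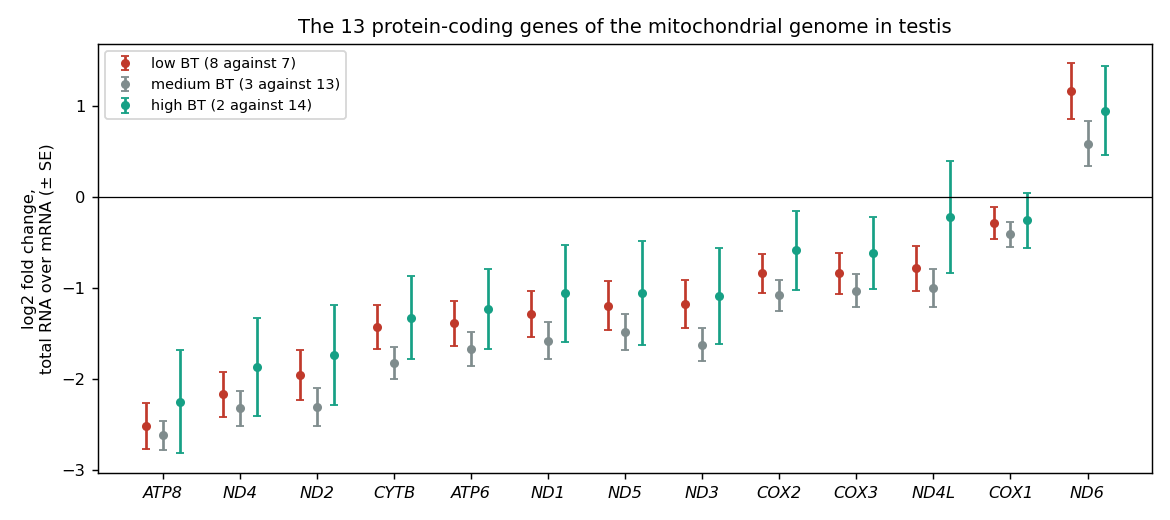
Log2 fold change (total RNA over mRNA) ± SE of the 13 protein-coding genes of the mitochondrial genome, in the order of the values in low BT, for low, medium and high BT testis. ATP8 is lowest and ND6 highest in each of the 3 merit groups.

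Of 12 genes of spermatids, 8 were lower in total RNA and 0 higher, beside 25.5% and 31.9% of all genes, with a median log2 fold change of -0.72 against 0.05 over all genes. ODF1, an outer dense fibre protein of the sperm tail, was at 176 to 326 CPM (median 220) in total RNA and at 640 to 1074 CPM (median 768) in mRNA. Its log2 fold change was -1.73 ± 0.14 (SE, adjusted p = 7.49e-09 in limma). ACRV1, an acrosomal protein, had a log2 fold change of -1.62 and SMCP, of the sperm mitochondrial capsule, one of -1.45. GAPDHS, the glycolytic enzyme of the sperm tail, had -1.42 and AKAP4, of the fibrous sheath, -1.09. CRISP2 had -0.80. For these 6 genes the kits did not overlap, beside 10.2% of all genes that were lower without overlap. With library sizes computed without the 10 highest genes, 7 of the 12 were lower and 1, PRM2, was higher. SPACA1 and TSSK6 were lower by -0.63 and -0.42 with overlapping ranges, and TSSK6 lost its call when the library sizes were computed without the 10 highest genes.

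The protamines and transition proteins did not pass the test. TNP1 was at 1973 to 6582 CPM (median 4684) in total RNA and at 3461 to 8431 CPM (median 5936) in mRNA. The log2 fold changes were -0.22 for TNP1, -0.29 for TNP2, -0.55 for PRM1 and 0.46 for PRM2. PRM1 was called lower with unscaled library sizes, with DESeq2 and without sample quality weights. The 12 spermatid genes took 1.19% to 2.84% of gene reads in total RNA and 3.00% to 4.72% in mRNA. As summed TMM-scaled CPM they were at 12724 to 31426 in total RNA and 26160 to 50558 in mRNA, and then overlapped. In tissue such as this, fewer cells of a type and less RNA per cell cannot be told apart, and whether the boars of the kits differed in spermatids was not tested.

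Genes of earlier germ cells were mixed. Among 8 genes of spermatocytes, SYCP3 and DMC1, of the synaptonemal complex and of meiotic recombination, were lower, with log2 fold changes of -0.77 and -0.65. SYCP2, a partner of SYCP3 in the same complex, was higher by 0.48, and HORMAD1 was called higher by 0.28, a call lost with DESeq2. The remaining 4 did not pass the test. Of 7 genes of spermatogonia, 3 were higher and 0 lower, beside 31.9% and 25.5% of all genes. KIT, the receptor of stem cell factor in differentiating spermatogonia, was at 42.6 to 73.0 CPM (median 53.7) in total RNA and at 6.84 to 17.9 CPM (median 14.6) in mRNA. The kits did not overlap, with a log2 fold change of 2.02 ± 0.18 (SE, adjusted p = 2.23e-08 in limma). ZBTB16, a transcription factor of undifferentiated spermatogonia, was higher by 2.39 but at 1.24 to 4.12 CPM at most.

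Of 6 Leydig cell genes, 1 was higher and 0 lower, beside 31.9% and 25.5% of all genes. The receptor for luteinising hormone, LHCGR, was at 37.4 to 129 CPM (median 80.4) in total RNA and at 3.88 to 20.99 CPM (median 7.59) in mRNA. No mRNA library reached the lowest total RNA library, and the log2 fold change was 3.05 ± 0.33 (SE, adjusted p = 2.5e-07 in limma). The other 5 genes of this cell type did not pass the test. CYP17A1, which makes the androgen precursors, was at 869 to 3504 CPM (median 1807) in total RNA and 659 to 3990 CPM (median 1340) in mRNA. CYP11A1, which opens steroid synthesis from cholesterol, had a log2 fold change of 0.25, and the hormone INSL3 one of 0.51. The 6 Leydig cell genes took 0.31% to 0.97% of gene reads in total RNA and 0.26% to 1.07% in mRNA (exact permutation p = 0.484, two-sided, 8 against 7). This sum is weighted to abundant genes such as CYP17A1 and says little about genes at the level of LHCGR. The median log2 fold change of the 6 genes was 0.40, against 0.05 over all genes. In medium BT it was 0.05 against 0.04, and in high BT 1.11 against -0.01. Whether the boars of the kits differed in Leydig cells was not tested.

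Of 16 genes of steroid hormone synthesis and its regulation, 4 were higher and 1 lower, both shares below the 31.9% and 25.5% of all genes. Beside LHCGR, the transcription factor NR5A1, which activates steroidogenic genes, rose by 1.57 ± 0.21 (SE) on the log2 scale. HSD17B4, a peroxisomal enzyme of fatty acid oxidation, rose by 1.25. STARD10, a phospholipid carrier, fell by 1.05, from 130 to 205 CPM (median 161) in mRNA to 59.9 to 89.7 CPM (median 76.0) in total RNA. HSD17B12 was called higher by 0.26, a call lost with unscaled library sizes.

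Of 8 Sertoli cell genes, 4 were higher and 1 lower, beside 31.9% and 25.5% of all genes. CLDN11, which seals the blood-testis barrier, rose by 1.09 on the log2 scale without overlap, and the receptor of follicle-stimulating hormone, FSHR, by 1.07. SOX9 and GATA4, transcription factors of these cells, rose by 0.67 and 0.70, and WT1, another, fell by 0.67. Of 6 genes of peritubular and smooth muscle cells, the kinase MYLK and the myosin MYH11 rose by 1.66 and 1.82. CNN1 was called lower by -0.89, a call lost at equal depth. Of 4 endothelial genes, the receptors TEK and KDR and the adhesion molecule PECAM1 rose by 1.54, 1.44 and 1.04, and EGFL7 did not pass the test. Their summed level was 36.8 to 92.9 CPM (median 51.9) in total RNA and 14.8 to 44.0 CPM (median 30.8) in mRNA. Of 4 macrophage genes, the mannose receptor MRC1 rose by 1.48, from 24.1 to 41.7 CPM (median 35.5) to 42.4 to 142 CPM (median 93.7). CSF1R was called higher by 1.22, a call lost without mRNA replicate 4, 6 or 7 or total RNA replicate 4. Of 2 lymphocyte genes CD2 was lower by -0.78. Neither of the 2 genes of red blood cells passed the test.

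With the small RNAs set aside, the 18 largest increases with a symbol, among genes without overlap and at 10 CPM or more in total RNA, were of H1-3 and 17 further genes. This set was chosen after the values were seen. CALCRL, a peptide receptor of vessels, and PI15 rose most, by 5.02 and 5.01 on the log2 scale, followed by the cholesterol exporter ABCA1 with 4.93. FBN1, which forms microfibrils of the extracellular matrix, was at 70.6 to 264 CPM (median 131) in total RNA and at 3.42 to 12.4 CPM (median 5.44) in mRNA, a log2 fold change of 4.50 ± 0.35 (SE, adjusted p = 3.78e-09 in limma). NID1 and HSPG2, of basement membranes, rose by 4.47 and 3.65, and MGA and NBEAL1 by 4.42 and 4.25.

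ATM, the kinase that senses DNA breaks, was at 57.6 to 82.2 CPM (median 70.5) in total RNA and at 2.37 to 10.4 CPM (median 3.18) in mRNA, a log2 fold change of 3.90 ± 0.21 (SE). The adaptor FRS2 rose by 3.79, the amino acid transporter SLC38A2 by 3.56, SELENOI, a phospholipid synthesis enzyme, by 3.52 and the kinase UHMK1 by 3.48. KMT2C, a histone methyltransferase, and PDGFRA, a growth factor receptor, rose by 3.46 and 3.45. The last, the chromatin remodeller ATRX, was between 3.32 and 14.5 CPM (median 4.82) in mRNA, below all total RNA libraries.

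The highest mRNA library was replicate 3 for 7 of these 17 genes and replicate 5 for 10. Replicates 3 and 5 also had the 2 lowest shares of assigned reads among mRNA libraries, 65.99% and 65.6%. The part that this has in the values was not tested. No gene lengths of the build used for counting were at hand, so the relation of the fold change to transcript length was not analysed here.

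The 12 largest decreases with a symbol, among genes without overlap and at a mean of 10 CPM or more in mRNA, held 3 mitochondrial mRNAs and 9 nuclear genes. MLIP, which binds lamin, was at 0.85 to 2.74 CPM (median 1.81) in total RNA and 6.35 to 16.3 CPM (median 11.0) in mRNA, a log2 fold change of -2.68 ± 0.25 (SE). BPIFA2 was at 3.67 to 7.97 CPM (median 4.82) in total RNA and 27.1 to 39.9 CPM (median 32.7) in mRNA, a log2 fold change of -2.63 ± 0.15 (SE). The other 7 were chosen after their values were seen. CATSPER1, a pore subunit of the calcium channel of the sperm tail, was at 16.1 to 33.3 CPM (median 23.4) in total RNA and 74.9 to 115 CPM (median 104) in mRNA. SPATC1, CIMAP1A and SUN5, the last of which joins the sperm head to the tail, had log2 fold changes of -2.05, -2.01 and -1.82. MBD6, MLLT11 and the RNA-binding protein TAF15 had -2.09, -1.94 and -1.91. Of the 10 most abundant mRNA genes not yet described, ANKRD35 and GSTM3 had log2 fold changes of -0.95 and -0.62.

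Of 20 subunits of the proteasome, which degrades ubiquitin-tagged proteins, 15 were lower, 2 higher and 3 not called, beside 25.5% lower and 31.9% higher of all genes, with a median log2 fold change of -0.37 against 0.05 over all genes. The ATPase subunits PSMC5, PSMC3, PSMC2 and PSMC1 had -0.87, -0.85, -0.85 and -0.74, each without overlap. PSMD5, an assembly chaperone, and PSMD1, a scaffold of the cap, rose by 0.72 and 0.62, also without overlap. In all, 5 subunits were lower without overlap, beside 10.2% of all genes, and 2 higher, beside 15.6%. With library sizes computed without the 10 highest genes, 11 were lower and 3 higher.

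Of 27 cytosolic ribosomal protein genes, 2 were higher, 5 lower and 20 not called, with a median of -0.08, and both shares were below those of all genes. RPS16 was lower by -0.76, and RPS21 and RPL38 rose by 0.66 and 0.52. Of 37 nuclear genes of oxidative phosphorylation, 6 were higher, 7 lower and 24 not called, with a median of -0.06, and both shares were again below those of all genes. NDUFA8 and NDUFA11 had -0.84 and -0.80, and NDUFS1 rose by 0.55. The log2 fold changes of the 37 genes ran from -2.75 to 0.625. With unscaled library sizes 5 were higher and 14 lower, and without the 10 highest genes 9 were higher and 4 lower. Ribosomal protein genes have many processed copies in the genome, and their counts are uncertain for that reason.

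Genes often used as references were not level between kits. Of 5 tested, 3 were higher, 1 lower and 1 not called, beside 31.9% higher and 25.5% lower of all genes. ACTB, an actin of the cytoskeleton, was at 390 to 560 CPM (median 437) in total RNA and at 222 to 284 CPM (median 233) in mRNA, a log2 fold change of 0.90 ± 0.09 (SE, adjusted p = 1.44e-07 in limma). GAPDH was higher by 0.89 with overlapping ranges and has near-identical copies. YWHAZ was called higher by 0.28, a call lost with unscaled library sizes and with DESeq2. SDHA did not pass the test. The lowest log2 fold change of the 5 was -0.81, and 1 gene, not named here, was lower in all total RNA libraries.

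The comparison bears on a list of genes that led the study's contrast of merit groups in testis or that it singled out by their annotation, since of its 16 low BT testis libraries 9 were total RNA, against 3 of medium and 2 of high BT. Of 23 such genes that could be tested, 12 were higher, 7 lower and 4 not called by kit within low BT, beside 31.9% and 25.5% of all genes. The study chose the leading genes on these samples, so the count is no independent evidence of a direction. PARPBP, which restrains homologous recombination, was at 11.4 to 21.3 CPM (median 15.5) in total RNA and at 3.38 to 4.72 CPM (median 4.50) in mRNA. MAP3K2, a kinase, rose by 1.71 on the log2 scale, CREBRF, a regulator of the stress response, by 1.54 and KANSL1L by 1.38. SLC25A39, a mitochondrial carrier, was at 105 to 136 CPM (median 116) in total RNA and 210 to 281 CPM (median 244) in mRNA. LAMP1, of the lysosome membrane, fell by 0.68 and COX4I1, of complex IV, fell by 0.72. All 15 libraries were of 1 merit group, so these values hold no contrast of merit. The part of the kit in the study's contrast was not tested.

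The same contrast in the other merit groups shared no library with the one in low BT. One medium BT mRNA library, replicate 6, stood apart from the other 12. Spermatid genes took 0.086% of its gene reads, against 2.60% to 5.38% in the others. Its summed level of peritubular and smooth muscle genes was 14961 CPM, against 68.95 to 245 CPM, and that of red blood cell genes 26686 CPM, against 13.0 to 194 CPM. In medium BT, 3 total RNA against 13 mRNA libraries, 4132 genes (26.6%) were higher and 2923 (18.8%) lower, and without mRNA replicate 6, 3911 were higher and 3404 lower. In high BT, 2 against 14, 3365 (22%) were higher and 2507 (16.4%) lower. Without total RNA replicate 1, 2 or 3 the medium BT counts fell to 1175, 2648 or 2474 higher and 325, 1263 or 1734 lower. In high BT without total RNA replicate 1, 1463 were lower. Of the 4693 genes higher in low BT and tested in medium BT, 3397 were also called higher there. They were 72.4% of the former and 85.2% of the 3987 called higher in medium BT. For lower genes the shared calls were 2332, 61.5% of those of low BT and 81.1% of those of medium BT. Without medium BT mRNA replicate 6 the shared calls were 3309 higher genes, 70.8% and 86% of the lists, and 2616 lower genes, 68.9% and 77.6%. With high BT the shared calls were 3009 higher genes, 64.5% and 90.5% of the lists, and 2201 lower genes, 57.9% and 88.2%. Across genes the log2 fold changes of low BT had a Pearson correlation of 0.89 with those of medium BT (14796 genes, and likewise 0.89 without mRNA replicate 6) and of 0.90 with those of high BT (14745 genes), as a description, since genes are not independent.

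**Figure D4:**
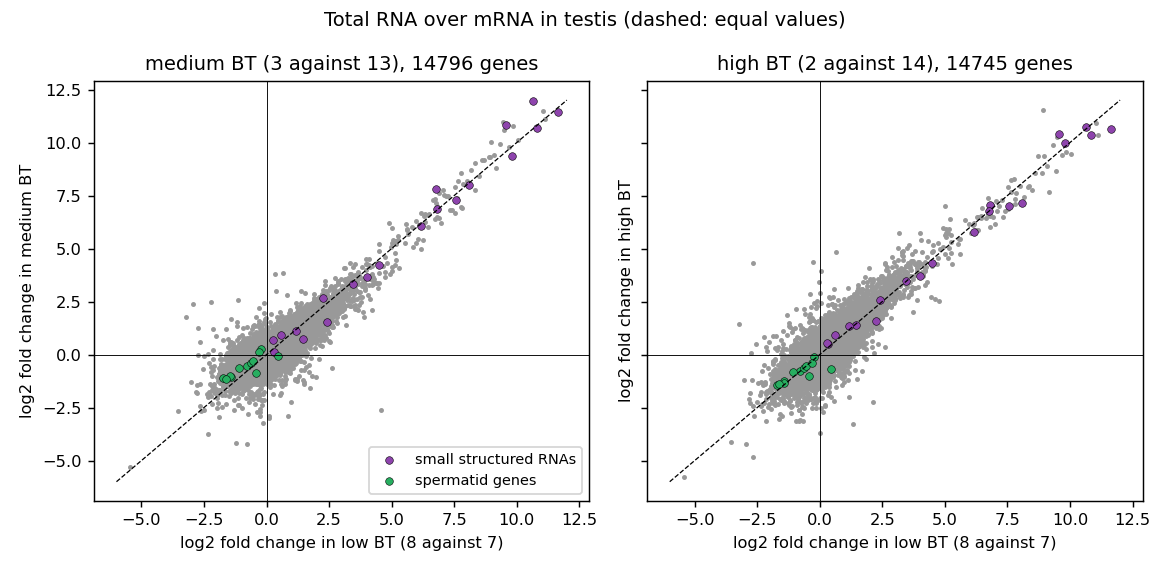
Each point is a gene, with its log2 fold change (total RNA over mRNA) in low BT on the horizontal axis and that in medium BT (left, 14796 genes) or high BT (right, 14745 genes) on the vertical axis, and a dashed line at equal values. Small structured RNAs lie along the line up to 11.65 in low BT, and most spermatid genes lie below 0 on both axes. The set drawn as small structured RNAs is the one matched by name, which includes U2SURP. The medium BT values include mRNA replicate 6.

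Among members described above, the log2 fold change of SNORD97 was 11.42 in medium and 10.66 in high BT, that of H1-3 3.47 and 4.07, that of LHCGR 2.95 and 4.16, that of FBN1 3.86 and 5.15, and that of ODF1 -1.12 and -1.44. Without medium BT mRNA replicate 6 the medium BT values were 11.41 for SNORD97, 3.44 for H1-3, 2.92 for LHCGR, 3.84 for FBN1 and -1.16 for ODF1. Of the 12 spermatid genes 7 were lower and 0 higher in either group. Of the 13 mitochondrial mRNAs 12 were lower in medium and 5 in high BT. Of all genes 18.8% were lower and 26.6% higher in medium BT, and 16.4% and 22% in high BT. Without mRNA replicate 6, 8 spermatid genes and 12 mitochondrial mRNAs were lower in medium BT, and 0 of either were higher. Of 15102 genes tested without it, 3404 were lower and 3911 higher. In medium BT the mRNA libraries came from batch 1 and batch 2. Against batch 1 alone 3207 genes were higher and 1938 lower, or 3148 and 2585 without mRNA replicate 6, and against batch 2 alone 3827 were higher and 2736 lower. The contrast was thus present against either mRNA batch, while all total RNA libraries remained of batch 3. In high BT all mRNA libraries were of batch 2.

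The kit contrast differed between low and medium BT at 28 of 15319 genes (0.183%) by the interaction term of limma. CCN2, a matricellular growth factor, was one of them. It differed by 1.34 ± 0.26 (SE, adjusted p = 0.0222 in limma), with log2 fold changes of 1.22 in low and -0.12 in medium BT. Another, DENND2A, differed by -0.93, from -0.67 in low to 0.28 in medium BT. Both were chosen after their values were seen. Without medium BT mRNA replicate 6, left out after the data were seen, 29 genes differed, 27 of them among the 28, and the differences were 1.35 ± 0.25 (SE, adjusted p = 0.0245 in limma) for CCN2 and -0.94 for DENND2A. With edgeR the count was 0, with 494 genes at an unadjusted p under 0.05. It was also 0 without any 1 of the 3 medium BT total RNA libraries.

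The livers of the same boars served to ask whether the boars themselves differed. For 7 boars whose testis library was of the total RNA kit and 7 whose testis library was of the mRNA kit, both livers were mRNA libraries of batch 1. Between these livers 0 of 12192 genes passed the test in limma, with 1551 at an unadjusted p under 0.05, and 0 in edgeR, with 1055. Chance alone gives about 1 in 20 at that threshold, and both counts were above it, though genes are not independent. Small differences can be missed with 7 against 7 livers, so the 0 does not show that the boars were alike. Among 3730 genes higher in total RNA testis and tested in liver, 46.4% had the same sign there, beside 49% of all genes. A difference between boars that is confined to testis would not appear in liver and was not tested.

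In liver itself, 2 total RNA libraries stood against 30 mRNA libraries of low and high BT, with the merit group in the fit, and 3085 of 12255 genes (25.2%) were higher and 2557 (20.9%) lower. Without one or the other of the 2 total RNA libraries the counts were 1809 and 2150 higher, and 1006 and 1261 lower. The total RNA livers were of batch 3 and the mRNA livers of batch 1, so kit and batch cannot be told apart there either. Of the 66 identifiers matched by name to small RNAs, 22 were tested there, and of these 12 were higher, 0 lower and 10 not called, with SNORD97 higher by 10.08 and SNORD17 by 9.13 on the log2 scale. All 13 mitochondrial mRNAs were lower, with a median of -2.90. Of 26 ribosomal protein genes tested in liver 26 were lower, with a median of -1.36, and of 37 nuclear genes of oxidative phosphorylation 34 were lower, with a median of -1.38. In low BT testis these medians were -0.08 and -0.06. The replication-dependent histones H1-3 and H2BC5 did not pass the test in liver. Of 3 spermatogonia genes tested in liver 2 were higher and 0 lower, with a median of 1.76. Of 3 spermatid genes tested there 2 were higher and 0 lower, with a median of 2.08. The spermatid genes had a summed level of at most 9.53 CPM in the total RNA livers. In low BT testis the medians of these lists were 0.30 and -0.72. The difference between the tissues was not tested.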

How the data were processed

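Reads had been trimmed by the authors (cutadapt 1.8.1, Trimmomatic 0.33), aligned by STAR against the pig genome, build Sscrofa10.2, and assigned to Ensembl genes in HTSeq 0.6.0 with its default parameters. The deposited values are raw counts for 25322 genes, without normalisation. Symbols came from a table of pig gene names, which held 11804 of the identifiers. The fit without medium BT mRNA replicate 6 was chosen after seeing the data. Libraries were grouped by the labels for tissue, merit group and kit. Batch came from the file labels.

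Only genes whose mean count exceeded 5 were tested. TMM factors, voom with sample quality weights and limma 3.58.1 (R 4.3.3) gave fold changes, which understate the change of genes near 0 counts, and Benjamini-Hochberg adjusted p-values, called below 0.05. edgeR 4.0.16 and DESeq2 1.42.0 were alternatives. Library measures were compared with two-sided exact permutation tests (scipy 1.17.1). P-values measure the spread between boars of 1 sample each, taken as independent. The paper allowed boars of the same sire group to be half-siblings, and relatedness was not part of the fits. Reads counted on genes ranged from 3689243 to 10843322 per library, which limits genes of few counts. The fits were run on simulated counts in which few genes changed, equally in both directions. That run does not test the scaling for data such as these, in which many genes differed. Named genes were, among called genes without overlap and at 10 CPM or more in the higher kit, the 10 largest changes each way, plus the 10 most abundant of each kit, the 5 of lowest p and members of the lists. Of identifiers without a symbol, at most 2 are printed each way. The comparison and the lists were chosen with earlier results of these data known. Coordinates, sequences and transcript lengths were not used here, so the planned description by gene length was not made. A few genes that meet these rules are counted but not reported here by name.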

Additional observations from a re-analysis of the deposited data

Results flagged for a closer look

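For 26 of 286 sets of values (library measures, and the CPM of each gene named, within 1 kit of 7 or 8 libraries) the highest or lowest library stood far from the others by Dixon's criterion. Chance alone gives about 1 in 20. Of the 26, 12 were the highest value of mRNA replicate 4: Leydig cell genes took 1.07% of its gene reads (next 0.60%), CYP17A1 was at 3990 CPM (next 1877) and CYB5A at 2934 CPM. Its mitochondrial mRNAs were at 17551 CPM for COX1 (next 10186), 3647 for ATP6, 2520 for ND5, 2493 for ND2, 2093 for ND4, 621 for ATP8 and 336 for ND4L. In the same library SNORD97 was at 0.72 CPM and U5 at 0.10 CPM, from 1 count against 0 in the other 6. The mRNA replicate 2 was highest in genes of smooth muscle and vessels, with 12.6 CPM for CNN1 (next 3.91), 8.91 for MYH11 and 5.49 for TEK, and had 150 CPM for PSMC2.

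Single values made up the rest. The mRNA replicate 7 had 27.4% of gene reads on identifiers without a symbol and 23.7 CPM of ID4, mRNA replicate 3 had 1.91 CPM of CSF1R, mRNA replicate 5 had 3.25 CPM of SELENOI, and mRNA replicate 6 had the lowest PARPBP, at 3.38 CPM. In total RNA, replicate 8 had 3589 CPM of CYB5A and 69.3 CPM of ATP8, replicate 6 had 33.3 CPM of KDR, and replicate 4 had 4.52 CPM of CSF1R and 247 CPM of ENSSSCG00000025162. The causes were not tested.

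The kit contrast differed between low and medium BT at 28 genes by the interaction term. For CCN2 the contrast in low BT exceeded that in medium BT by 1.34 on the log2 scale, and for DENND2A the difference was -0.93. Both genes were chosen after their values were seen. As given above, all of these calls were lost with edgeR. They were also lost when any single medium BT total RNA library was left out.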

How the results depend on the processing

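The counts of genes called in low BT stayed within 1.5 times of 4745 higher and 3799 lower under every alternative run, and leaving out 1 library gave 4295 to 4795 higher and 3573 to 4105 lower. Of 128 genes followed over 3297 values under alternatives, 0 changed direction, and 14 changed call at least once (59 values lost and 26 gained), 2 of them through leaving out 1 library alone. Some of the genes followed were named for large changes without overlap in these same libraries. That choice left their direction and call little room to change. In medium BT, unscaled library sizes gave 2123 higher and 5664 lower, edgeR 1333 and 318, batch 1 mRNA libraries alone 1938 lower, and leaving out 1 library 1175 to 4196 higher and 325 to 3404 lower. In high BT leaving out 1 library gave 2702 to 3502 higher and 1463 to 2552 lower, and in liver 1809 to 2150 and 1006 to 1261. The interaction with merit gave 190 genes above with unscaled library sizes, 0 above and 0 below with edgeR, and 0 to 71 above and 0 to 12 below when 1 library was left out. In the livers of the same boars each alternative gave 0 genes. With the library of few genes kept, the difference in reads not aligned was 0.81 percentage points and no longer passed the test, and that in reads on ribosomal protein genes turned from -0.19 to 0.26 percentage points. Apart from removed libraries, the causes were not tested. For the interaction only total RNA libraries and medium BT mRNA replicate 6 were left out in turn, and for the liver contrast only total RNA libraries. No paired analysis was possible because each library came from another boar. Depth limits statements on genes of few counts, such as small RNAs in mRNA libraries.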
